A study of Mus musculus with 62 samples.

Results

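The forebrain of Ts65Dn embryos was compared with that of euploid embryos at E17.5, late in gestation. The comparison took every library labelled as embryonic, 15 of the 62 in a study of the chromosome 21 ortholog Brwd1 in a mouse model of Down syndrome: 8 euploid (EU1 to EU8) and 7 Ts65Dn (TS1 to TS7), with 1 library for each sample and no pooling stated. The other 47 libraries came from the hippocampus of adults, and 31 of them, euploid and Ts65Dn of both sexes, enter only the last comparison below. Ts65Dn mice carry an additional small chromosome made of the distal end of chromosome 16 and the proximal end of chromosome 17, so that the genes of those segments are present in 3 copies. All embryos shared the mixed DBA/2J x B6EiC3Sn/J background, and Ts65Dn is a germline trisomy present in every cell. In the crosses the study describes the trisomy came from the mother, so euploid littermates also developed in Ts65Dn mothers. The proximal chromosome 17 segment holds no orthologs of chromosome 21 genes, which limits Ts65Dn as a model of Down syndrome. Sex was not labelled for the embryos. Since litters and dates were not given, p-values measure the spread between these samples.

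At this stage the forebrain still produces neurons while its radial glia begin to form astrocytes and oligodendrocyte precursors. The dissected tissue also holds vessels, meninges, choroid plexus and resident macrophages, whose gene programs differ from those of neurons. Interferons act on paired receptor chains, several of which are encoded in the distal chromosome 16 segment, and switch on a defined group of genes that includes antigen presentation and antiviral proteins.

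The libraries held between 14.9 M and 62.6 M counts (M standing for 1000000) in the euploid group, with a median of 23.75 M. Ts65Dn libraries held 18.3 M to 58.7 M, with a median of 43.1 M. Gene levels are given as counts per 1000000 counts of the library (CPM), with library sizes scaled by edgeR, and a gene is called changed at an adjusted p under 0.1 in edgeR's quasi-likelihood test. Ddx3y, a Y-linked gene, lay between 48.8 and 56.3 CPM in EU3, EU6, TS1, TS2 and TS7 and at or under 0.232 CPM in the other libraries. Xist, the RNA that coats the inactive X, lay between 1318 and 1993 CPM in those other libraries, at 16.5 and 11.9 CPM in EU3 and EU6, and between 1.28 and 3.89 CPM in TS1, TS2 and TS7.

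The label of forebrain was checked with marker genes, and the libraries differed in which other regions and tissues they carried. Transcription factors of the midbrain, hindbrain and spinal cord, which forebrain tissue should lack, summed to between 4.48 and 211 CPM in euploid libraries, with a median of 44.5 CPM. In Ts65Dn libraries their sum lay between 56.7 and 356 CPM, with a median of 211 CPM, and all 7 were above the euploid median. Forebrain factors moved the other way, with a median sum of 1080 CPM in euploid and 721 CPM in Ts65Dn libraries. TS7 had the lowest forebrain sum, at 332 CPM, and EU7 had the lowest choroid plexus level, with a sum of 152 CPM for that list and 19.8 CPM of the choroid plexus gene Ttr. EU3 stood apart for muscle, bone and skin genes, whose sum was 415 CPM against 53.9 to 68.3 CPM in the other euploid libraries, and for meningeal genes, at 3120 CPM against at most 1480 CPM. The part of these tissue differences in the results below was not tested beyond the settings given beside them.

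**Figure D1:**
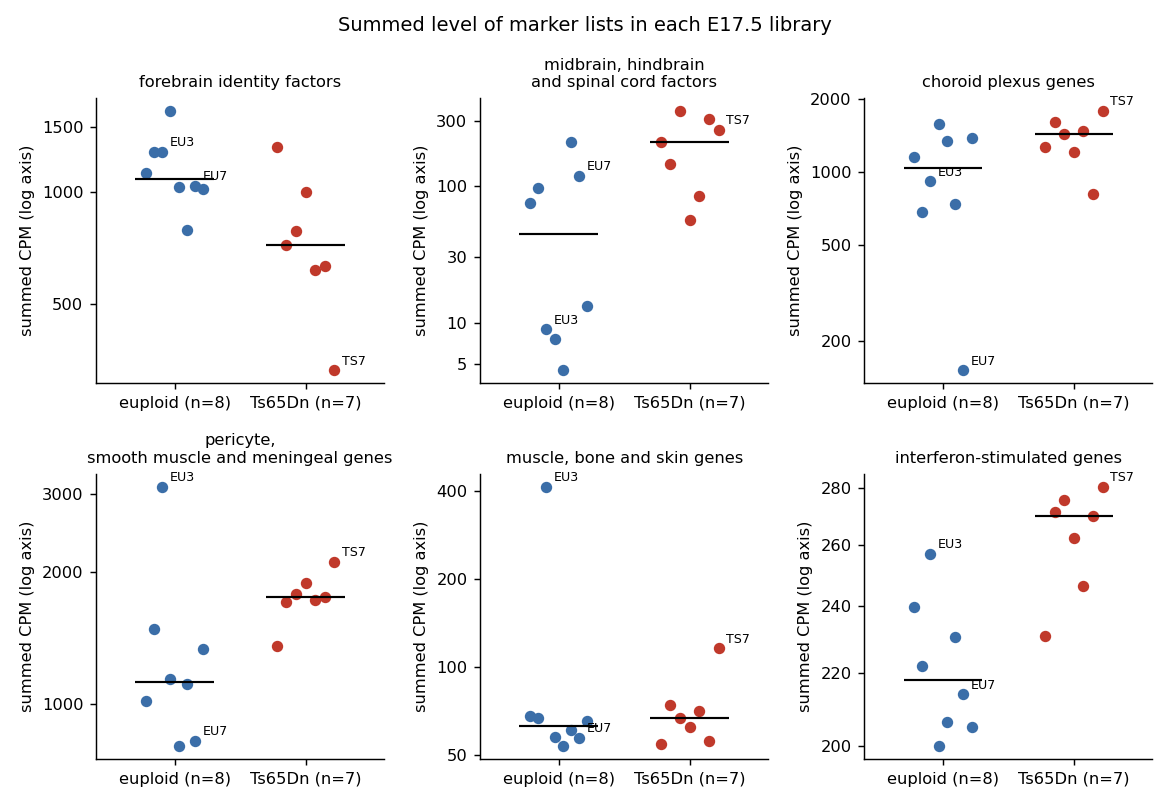
Summed level in each E17.5 library of the members of 6 gene lists outside the segments, whether tested or not, in CPM on log axes. Points are libraries (8 euploid in blue, 7 Ts65Dn in red), lines are group medians, and EU3, EU7 and TS7 are named. All 7 Ts65Dn libraries lie above the euploid median of 44.5 CPM for midbrain, hindbrain and spinal cord factors, EU3 lies apart for muscle and meningeal genes, and EU7 for choroid plexus genes.

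Of 16395 genes tested, 221 were called, which is 1.35% of all genes; 181 were higher (1.1%) and 40 lower (0.244%) in Ts65Dn. Of the 221, 138 were counted as outside the triplicated segments, and genes without a matched position are counted as outside throughout. Outside the segments 98 genes rose in Ts65Dn (0.603% of the 16262 tested there) and 40 fell (0.246%). A position was matched for 97 of the genes that rose and 39 of those that fell. The median log2 fold change of all genes outside the segments was -0.01. Genes that rose had a median euploid level of 7.64 CPM and changes from 0.24 to 6.40 on the log2 scale (median 0.61), and 39 of them lay under 5 CPM. Genes that fell changed less, by a median of 0.36 on the log2 scale, from a median euploid level of 27.4 CPM, and 5 of them lay under 5 CPM.

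The number called outside the segments changed with single libraries and with marker covariates, chosen after seeing the data. It was 167 without EU3 and EU7, 364 without EU3, 48 without TS2 and 55 without TS7. Of the 138 genes themselves, 88, 133, 45 and 48 were still called in these settings, and the rest of each count were other genes. With the summed level of the midbrain, hindbrain and spinal cord list as a covariate, 5 of the 138 genes were still called, although all 138 kept their direction; the 5 were gene 319358, Mia, Slc6a12, Lepr and Gxylt2, of which Mia, Lepr and Gxylt2 are named because of this value. That covariate itself differed between the genotypes, as given above. Sample titles carried one of 2 numbers of unstated meaning. The first was shared by EU1 to EU4 and TS1 to TS3, the second by EU5 to EU8 and TS4 to TS7. In the first set of libraries alone 3 genes outside the segments were called, none of them among the 138. The second set alone gave 70, of which 26 were among the 138. A total of 31 genes counted as outside the segments were called whichever of the 15 libraries was left out, 28 of them higher in Ts65Dn and 3 lower. They include gene 319358, which has no matched position, and 1700010I14Rik, which lies next to the chromosome 17 border. Of the 138 genes, only gene 319358 was called both without EU3 and EU7 and with each of 3 marker covariates.

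**Figure D2:**
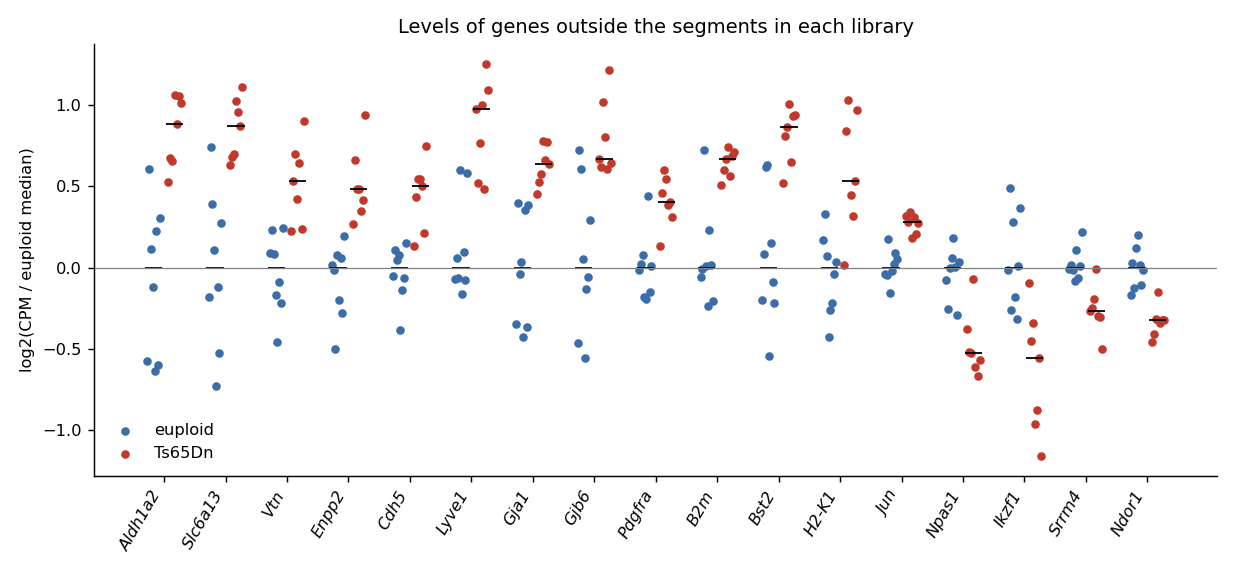
Levels of single genes outside the triplicated segments in each E17.5 library, as log2 of the CPM over the euploid median of that gene, with euploid libraries in blue, Ts65Dn libraries in red and short lines at the group medians. Gja1, Enpp2 and Jun are higher in every Ts65Dn library than in any euploid library, while the B2m groups overlap at EU3, which has 29.1 CPM.

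Genes of the meninges and the cells around vessels included 3 that rose and none that fell among 26 tested outside the segments. Of all genes outside the segments 0.603% rose. The list's median log2 fold change was 0.34. Here and in the other lists of cell-type genes, more cells of a type and more RNA per cell cannot be told apart. Aldh1a2, the retinoic acid synthesizing enzyme of the meninges, had a lowest, median and highest level of 9.54, 14.8 and 22.5 CPM in euploid and of 21.3, 27.3 and 30.9 CPM in Ts65Dn libraries. The groups overlapped slightly, with 6 of 7 Ts65Dn libraries above every euploid library, and the log2 fold change was 0.86 (SE 0.17, adjusted p = 0.0228). Vtn, which encodes vitronectin and is made by pericytes, rose by 0.56 (SE 0.11, adjusted p = 0.0247) and Slc6a13, a GABA and taurine transporter of the leptomeninges, by 0.80 (SE 0.18, adjusted p = 0.0464). Of the 26 genes, 10 were higher at an unadjusted p under 0.05 and none lower, where 6.19% of all genes outside the segments were higher and 5.29% lower. Without EU3, in which meningeal genes were highest, 14 members were called, and with EU3 and EU7 both left out, 9. With the midbrain, hindbrain and spinal cord covariate none was called, 9 of the members stayed under an unadjusted p of 0.05, and the median was 0.52.

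Slc6a12, a betaine and GABA transporter that is a chromosomal neighbour of Slc6a13, was under no list and rose as well. Its lowest, median and highest levels were 0.739, 1.07 and 1.72 CPM in euploid and 1.62, 2.67 and 3.39 CPM in Ts65Dn libraries, with a log2 fold change of 1.15 (SE 0.22, adjusted p = 0.0125). The groups overlapped only in the lowest Ts65Dn library.

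Choroid plexus genes, which encode transport and secretory proteins of the cerebrospinal fluid barrier, had 1 called member of 20. Of all genes outside the segments 0.603% were called higher. Enpp2, the lysophospholipase D autotaxin, measured 38.6, 54.6 and 62.4 CPM at its lowest, median and highest in euploid and 65.7, 76.1 and 105 CPM in Ts65Dn libraries. No Ts65Dn library overlapped with a euploid library, and Enpp2 rose by 0.59 on the log2 scale (SE 0.11, adjusted p = 0.00791). The median of the list was 0.52. At an unadjusted p under 0.05, 8 of 20 members were higher and none lower, against 6.19% and 5.29% of all genes outside the segments. The summed level of the list had a median of 1030 CPM in euploid and 1430 CPM in Ts65Dn libraries, and EU7, at 152 CPM, lay below all others.

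Endothelial genes had 1 called member of 27, where 0.603% of all genes outside the segments were called higher. It was Cdh5, the VE-cadherin of endothelial junctions. Its lowest, median and highest levels were 19.2, 25.05 and 27.8 CPM in euploid and 27.4, 35.5 and 42.0 CPM in Ts65Dn libraries. All but 1 Ts65Dn library lay above the highest euploid library, and the log2 fold change was 0.48 (SE 0.09, adjusted p = 0.0166). Another 7 members were higher at an unadjusted p under 0.05 and none was lower, against 6.19% and 5.29% of all genes outside the segments. The median of the list was 0.15.

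Among microglia and brain macrophage genes, 2 of 27 rose, against 0.603% of all genes outside the segments. Both mark macrophages at the borders of the brain and not parenchymal microglia. Lyve1, a hyaluronan receptor, had levels of 4.67, 5.22 and 7.91 CPM in euploid and 7.30, 10.3 and 12.4 CPM in Ts65Dn libraries, a log2 fold change of 0.75 (SE 0.15, adjusted p = 0.018). Mrc1, the mannose receptor, had a log2 fold change of 0.56 (SE 0.14, adjusted p = 0.0966). The folate receptor gene Folr2, another gene of border macrophages, rose from a median of 0.674 CPM (range 0.421 to 1.09) to 1.57 CPM (range 0.975 to 1.94), by 1.13 on the log2 scale (SE 0.21, adjusted p = 0.0121). The other members of the list held no call, the 2 called members were also the only ones at an unadjusted p under 0.05, and the list's median was 0.04.

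Astrocyte genes had 3 members that rose of 25 and none that fell, where 0.603% of all genes outside the segments rose. Their median log2 fold change was 0.19. Gja1, which encodes the main gap junction protein of astrocytes, connexin 43, measured 63.7, 85.5 and 112 CPM at its lowest, median and highest in euploid and 117, 133 and 147 CPM in Ts65Dn libraries. The groups did not overlap, and the log2 fold change was 0.59 (SE 0.13, adjusted p = 0.033). Gjb6, its partner connexin 30, rose by 0.69 (SE 0.18, adjusted p = 0.0913). In all, 9 members were higher at an unadjusted p under 0.05, against 6.19% of all genes outside the segments. Both connexins are also expressed by meningeal cells, whose list moved in the same direction. With the midbrain, hindbrain and spinal cord covariate the median of the astrocyte list was 0.01, with none called and 5 members at an unadjusted p under 0.05.

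Oligodendrocyte precursor genes had 1 member called of 16, where 0.603% of all genes outside the segments were called higher. It was Pdgfra, the platelet-derived growth factor receptor of these precursors and of meningeal fibroblasts. Its lowest, median and highest levels were 48.3, 55.2 and 74.9 CPM in euploid and 60.4, 73.0 and 83.5 CPM in Ts65Dn libraries. The groups overlapped, with 3 of 7 Ts65Dn libraries above the highest euploid library, EU6, and the log2 fold change was 0.39 (SE 0.09, adjusted p = 0.0546). The median of the list was 0.22 and 5 members were higher at an unadjusted p under 0.05, against 6.19% of all genes outside the segments. Radial glia genes, by comparison, had a median of 0.00 over 31 members with none called.

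Interferon-stimulated genes had 3 members that rose of 43 tested outside the segments, where 0.603% of all genes rose, and none that fell. Their median log2 fold change was 0.37, and 39 of the 43 were above 0. At an unadjusted p under 0.05, 20 were higher and none lower, against 6.19% and 5.29% of all genes outside the segments. B2m, the light chain of class I antigen presentation, had a lowest, median and highest level of 14.99, 17.7 and 29.1 CPM in euploid and of 25.1, 28.02 and 29.5 CPM in Ts65Dn libraries. EU3 reached the Ts65Dn range and the next euploid library stood at 20.8 CPM, and the log2 fold change was 0.56 (SE 0.11, adjusted p = 0.025). Bst2, or tetherin, which holds budding virions at the cell surface, rose from a median of 2.73 CPM (range 1.87 to 4.22) to 4.97 CPM (range 3.92 to 5.47), by 0.73 on the log2 scale (SE 0.17, adjusted p = 0.051). H2-K1, a class I heavy chain that also stands in the list of genes known to differ between strains, rose by 0.65 (SE 0.16, adjusted p = 0.0634).

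The members that did not pass included a transcription factor and antiviral effectors of the same response, of which 4 are given here, chosen after their values were seen. Irf7, a transcription factor that amplifies the response, had a log2 fold change of 0.53. The ubiquitin-like modifier Isg15 had 0.66, its protease Usp18 1.17 and the antiviral enzyme Rsad2 1.24, each at an unadjusted p under 0.05. Per library, the summed level of the list was 200 to 257 CPM in euploid, with a median of 218 CPM, and 231 to 281 CPM in Ts65Dn libraries, with a median of 270 CPM, so that the groups overlapped while all 7 Ts65Dn libraries lay above the euploid median. With the midbrain, hindbrain and spinal cord covariate no member was called and the list's median was 0.30; with the choroid plexus covariate it was 0.45 with 1 call, with the meningeal covariate 0.34 with 1 call, and without EU3 and EU7 it was 0.44 with 2 calls.

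Several receptor chains for interferons were among the genes at 3 copies, and they are named here because of their role and after their values were seen. Whether their levels bear on the interferon-stimulated genes was not tested. Ifnar1, a chain of the type I interferon receptor, measured 110, 124 and 129 CPM at its lowest, median and highest in euploid and 165, 167 and 185 CPM in Ts65Dn libraries, without overlap, a log2 fold change of 0.49 (SE 0.05, adjusted p = 1.19e-05). Ifnar2, its partner chain, rose by 0.58 (adjusted p = 0.000535) and Ifngr2, a chain of the interferon gamma receptor, by 0.63 (adjusted p = 3.94e-05). Il10rb, shared by receptors of interleukin 10 and type III interferon, rose by 1.01 (adjusted p = 3.93e-05), from a median of 5.51 CPM to 10.8 CPM. Mx2, an interferon-stimulated gene within the segment and hence not counted in the list above, rose from a median of 0.296 CPM to 0.814 CPM, by 1.33 (adjusted p = 0.0139).

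The bases before the starts of B2m and Bst2 are shown because both genes rose and both hold a match to the core of the interferon-stimulated response element, GAAANNGAAA, searched on both strands; capitals mark the match, which in Bst2 is a pair of overlapping matches. The sequences are the 250 bases before the gene start in RefSeq GRCm38.p6, read 5′ to 3′ on the gene's strand. The B2m stretch lies at chr2:122147437-122147686 on the plus strand and the Bst2 stretch at chr8:71537473-71537722 on the minus strand.
B2m: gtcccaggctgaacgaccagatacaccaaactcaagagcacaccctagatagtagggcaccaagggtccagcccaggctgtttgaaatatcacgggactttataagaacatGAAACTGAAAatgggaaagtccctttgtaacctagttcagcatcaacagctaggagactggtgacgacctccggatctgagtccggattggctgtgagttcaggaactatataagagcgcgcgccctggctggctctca
Bst2: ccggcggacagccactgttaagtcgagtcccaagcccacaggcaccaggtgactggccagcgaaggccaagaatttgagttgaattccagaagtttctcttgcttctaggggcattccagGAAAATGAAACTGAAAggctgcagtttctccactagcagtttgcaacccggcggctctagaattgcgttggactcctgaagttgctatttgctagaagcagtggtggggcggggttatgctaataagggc

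The match begins 139 bases before the start in B2m, and 130 and 124 bases before it in Bst2. Of the interferon-stimulated genes, 34 of the 43 had a window in the RefSeq table. Of these, 15 (44.1%) held a match in their 300 base window, as did 3.99% of all 27025 genes with a window. The list was drawn up from known interferon-stimulated genes, so this share describes the list and not an effect of Ts65Dn. Among the members that were higher at an unadjusted p under 0.05, 8 of 16 with a window held one. The window of H2-K1 held no match to these letters.

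Among GABAergic interneuron genes 1 of 33 fell and none rose, where 0.246% of all genes outside the segments fell. The median log2 fold change of the list was -0.29. Npas1, a transcription factor of interneurons from the ventral forebrain, measured 13.7, 16.7 and 18.96 CPM at its lowest, median and highest in euploid and 10.6, 11.7 and 15.9 CPM in Ts65Dn libraries. All but 1 Ts65Dn library lay below the lowest euploid library, and the log2 fold change was -0.42 (SE 0.10, adjusted p = 0.0535). Among striatal projection neuron genes 1 of 22 fell, against the same 0.246%, and the list's median was -0.10. It was Ikzf1, which encodes the zinc finger factor Ikaros, with a log2 fold change of -0.67 (SE 0.16, adjusted p = 0.0725). Its levels were 11.3, 14.1 and 19.75 CPM in euploid and 6.32, 9.57 and 13.2 CPM in Ts65Dn libraries, and 6 of 7 lay below the lowest euploid library. With the midbrain, hindbrain and spinal cord covariate the adjusted p was 0.858 for Npas1 and 0.392 for Ikzf1.

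Cell cycle genes had no member called of 46, with a median of -0.22 and 1 member above 0. At an unadjusted p under 0.05, 4 were lower, where 5.29% of all genes outside the segments were. With the midbrain, hindbrain and spinal cord covariate the median of the cell cycle list was -0.10. Upper-layer cortical neuron genes had none called of 15, with 4 lower at an unadjusted p under 0.05 and a median of -0.23. Forebrain identity factors had none called of 10 and a median of -0.38. The midbrain, hindbrain and spinal cord list had none called of 16, 15 of them above 0 and a median of 1.19. Hoxb8, a spinal cord and caudal hindbrain gene in no list that is named because of its value, was the largest increase called, at 6.40 (adjusted p = 0.0834), with euploid levels from 0 to 0.841 CPM and Ts65Dn levels from 0 to 74.0 CPM.

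Immediate early genes had 1 called member of 23, where 0.603% of all genes outside the segments were called higher. Jun, a subunit of the AP-1 transcription factor, measured 47.9, 53.2 and 60.2 CPM at its lowest, median and highest in euploid and 60.5, 64.7 and 67.6 CPM in Ts65Dn libraries, with no overlap and a log2 fold change of 0.26 (SE 0.05, adjusted p = 0.0172). The list's median was -0.17, on the other side of 0, with 3 members lower at an unadjusted p under 0.05 and Jun alone higher. Of all genes outside the segments 5.29% were lower and 6.19% higher at that level.

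Lists of energy metabolism, translation and chromatin held almost no call. Among nuclear genes of the respiratory chain and ATP synthase 1 of 80 rose, where 0.603% of all genes outside the segments did. It was Cox6b2, an isoform of a cytochrome c oxidase subunit best known from testis, which rose by 0.69 (adjusted p = 0.0586). The median of the list was -0.01. Glycolysis and hypoxia genes had none called of 31 and a median of 0.14. Of these, 9 were higher at an unadjusted p under 0.05, against 6.19% of all genes outside the segments. Cytosolic ribosomal protein genes had none called of 85 and a median of -0.14. Genes of the BAF chromatin remodeling complexes had none of 27 and a median of -0.08. In the BAF list 4 were lower at an unadjusted p under 0.05, against 5.29% of all genes outside the segments. Synaptic vesicle genes had none of 39 (median 0.09) and postsynaptic genes none of 37 (median -0.04). Of the 54 lists described, 12 held a called member, 10 of them a gene that rose and 2 a gene that fell, and the medians of 31 lists lay within 0.1 of 0.

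**Figure D3:**
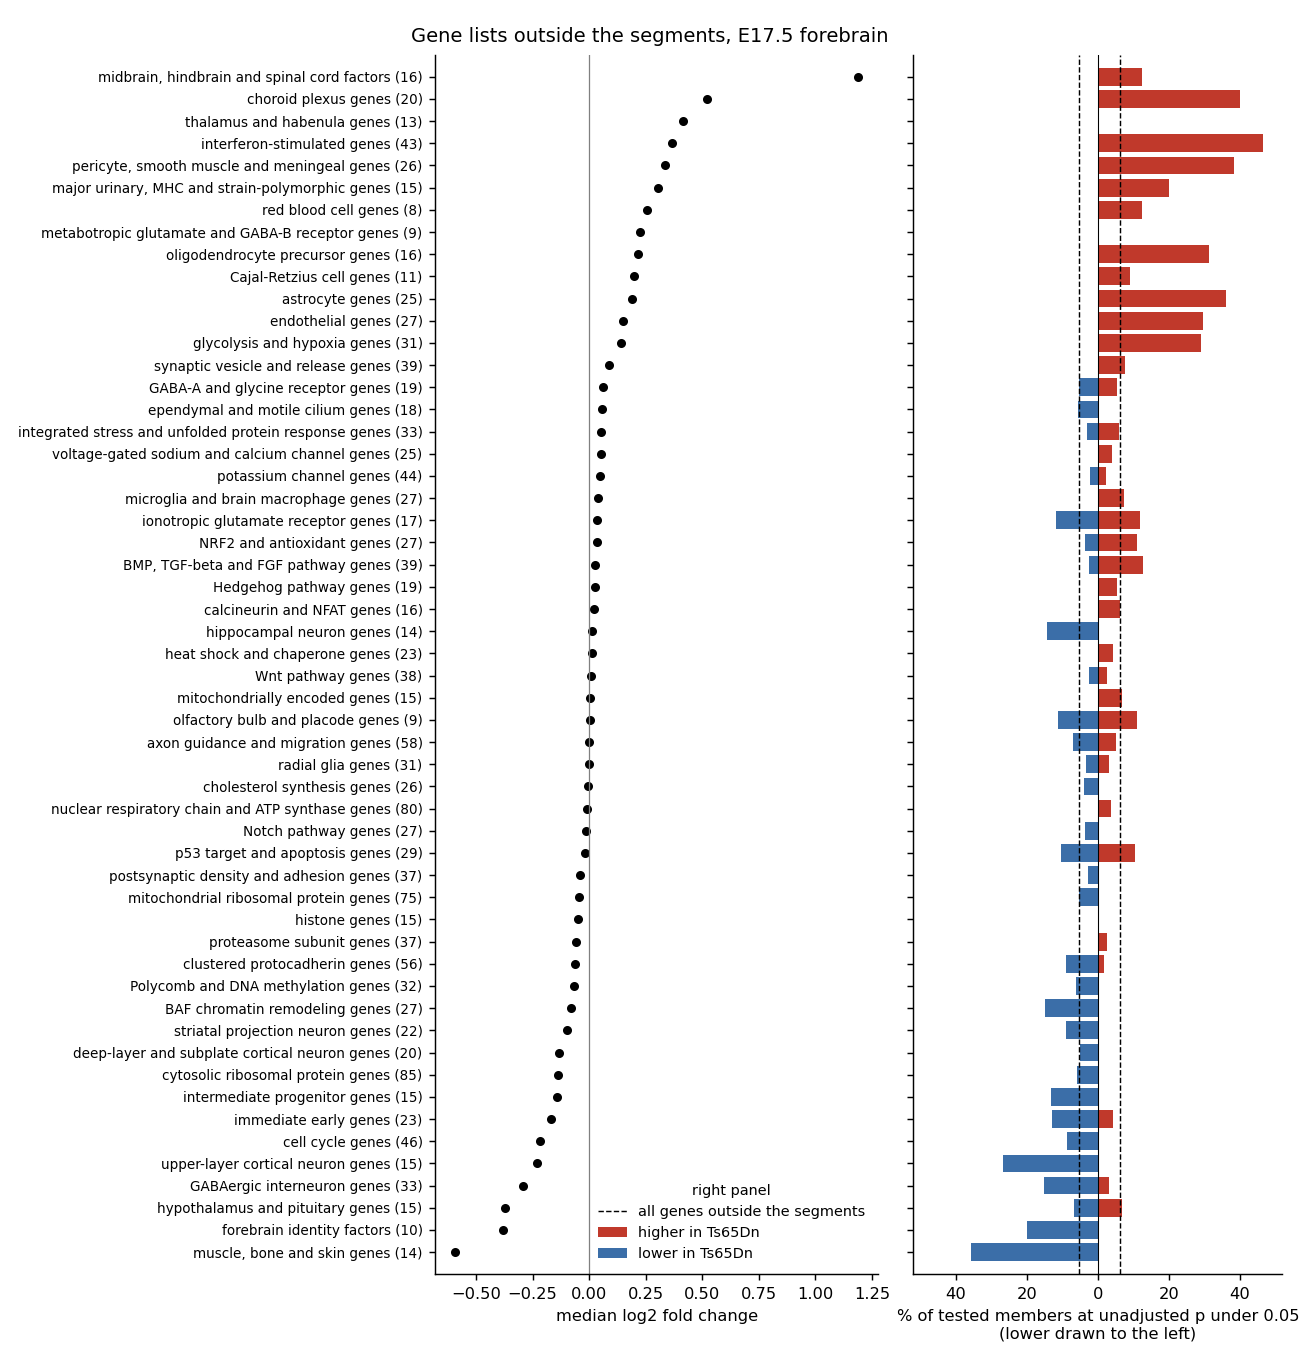
Gene lists outside the triplicated segments, with the number of tested members in brackets: the median log2 fold change of Ts65Dn over euploid (left) and the percent of members higher (red) or lower (blue) at an unadjusted p under 0.05 (right). Dashed lines mark the same percents over all genes outside the segments, 6.19% higher and 5.29% lower; the interferon, choroid plexus and meningeal lists lie furthest above the first, and muscle, bone and skin genes lie furthest past the second, a list in which EU3 stands apart.

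Genes outside every list made up most of those with the smallest p-values. Gene 319358, for which no name or position was matched, had the smallest, with levels of 3.75, 4.49 and 5.84 CPM in euploid and 6.67, 8.18 and 9.28 CPM in Ts65Dn libraries and a log2 fold change of 0.75 (SE 0.12, adjusted p = 0.00203). Whether it lies in a triplicated segment is not known here. Its groups did not overlap, and it was called without EU3 and EU7 and with each of the covariates for midbrain, hindbrain and spinal cord, choroid plexus and meningeal genes.

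Stom, which encodes the membrane protein stomatin, measured 12.3, 14.9 and 16.3 CPM at its lowest, median and highest in euploid and 17.47, 19.8 and 20.5 CPM in Ts65Dn libraries, without overlap, and rose by 0.42 (adjusted p = 0.00618). Serpind1, the thrombin inhibitor heparin cofactor II, went from a median of 1.58 CPM (range 0.934 to 3.04) to 4.12 CPM (range 3.17 to 4.404), also without overlap, and rose by 1.14 (adjusted p = 0.00636). The transmembrane collagen gene Col23a1 separated the groups as well, with at most 24.9 CPM in euploid and at least 25.7 CPM in Ts65Dn libraries, and rose by 0.61 (adjusted p = 0.00936). Oplah, an enzyme that returns oxoproline to glutamate in the glutathione cycle, rose by 0.41 (adjusted p = 0.0171), with at most 15.1 CPM in euploid and at least 16.2 CPM in Ts65Dn libraries. Cpq, a secreted carboxypeptidase, rose by 0.85 (adjusted p = 0.00765), and Selenov, a selenoprotein gene, by 1.82 (adjusted p = 0.0116) from a euploid median of 0.632 CPM.

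Mpc1-ps, a pseudogene of the mitochondrial pyruvate carrier gene, rose by 0.57 (SE 0.11, adjusted p = 0.0103). Its parent gene Mpc1, named here after its value was seen, lies in the chromosome 17 segment and had a log2 fold change of 0.55 (adjusted p = 0.144). Reads of the parent may have been counted for the copy, so the value of Mpc1-ps is uncertain.

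Among the genes that fell, 3 had the smallest p-values. Ndor1, a flavoprotein of cytosolic iron-sulfur cluster assembly, had levels of 38.1, 42.8 and 49.3 CPM in euploid and 31.2, 34.3 and 38.6 CPM in Ts65Dn libraries, and only the highest Ts65Dn library overlapped. The skeletal muscle chloride channel gene Clcn1 had at least 6.201 CPM in euploid and at most 5.56 CPM in Ts65Dn libraries, and Proz, a vitamin K-dependent plasma protein, at least 5.59 and at most 5.60 CPM. The Clcn1 groups did not overlap and those of Proz overlapped in 1 Ts65Dn library. Ndor1, Clcn1 and Proz were the 3 genes called lower whichever library was left out. Among better known neural genes Srrm4, the splicing factor that includes neuronal microexons, had a log2 fold change of -0.28 (SE 0.07, adjusted p = 0.0596), with 6 of 7 Ts65Dn libraries below the lowest euploid library. Pik3r3, a regulatory subunit of PI3 kinase, fell by 0.27 (adjusted p = 0.0606), Hdac10, a polyamine deacetylase, by 0.38 (adjusted p = 0.0446) and Tmem44, a membrane protein gene, by 0.23 (adjusted p = 0.0278). With the midbrain, hindbrain and spinal cord covariate no gene was called lower.

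Inside the segments, 83 of 133 tested genes rose, which is 62.4%, and none fell. The median log2 fold change was 0.56, a fold of 1.47, and 131 of 133 values were above 0. App, the precursor of amyloid beta, had levels of 509, 712 and 881 CPM in euploid and 1056, 1423 and 1462 CPM in Ts65Dn libraries, with no overlap and a log2 fold change of 0.86 (SE 0.11, adjusted p = 0.000287). Per library the median log2 ratio of the segment genes to the euploid mean lay between -0.04 and 0.04 in euploid and between 0.53 and 0.57 in Ts65Dn libraries, so that every library matched its labelled genotype.

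Tested against a 1.5-fold level in place of no change, 1 of the 133 segment genes was called (0.752%). Prdm15, a zinc finger transcription factor gene, measured 27.1, 32.5 and 36.4 CPM in euploid and 32.3, 34.0 and 40.7 CPM in Ts65Dn libraries, which overlapped. Its log2 fold change was 0.13, which lay 0.45 below the 1.5-fold level (adjusted p = 0.0725). The adjusted p ran from 0.0293 to 0.161 when libraries were left out in turn. In all, 18 segment genes differed from the 1.5-fold level at an unadjusted p under 0.05, 7 of them above and 11 below.

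Genes just past the borders set here were examined next. On chromosome 17, 50 genes were tested within 10 Mb past the distal border, set at the end of Pde10a at position 8986648 of mm10, and 1 was called. That gene, 1700010I14Rik, starts 1672 bp past this border, at chr17:8988320-9008319, and its groups did not overlap, with at most 2.64 CPM in euploid and at least 2.75 CPM in Ts65Dn libraries (log2 fold change 0.91, SE 0.16, adjusted p = 0.00763). The next tested gene, 161071 bp past the border, had 0.48 (adjusted p = 0.325). Where the triplication itself ends was not tested, so whether either gene is present at 3 copies is not known here. The median of the 50 genes was -0.03. On chromosome 16 none of 13 genes within 10 Mb before the border was called, and their median was 0.01. Genes called outside the segments were found on each of the 19 autosomes and on X.

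**Figure D4:**
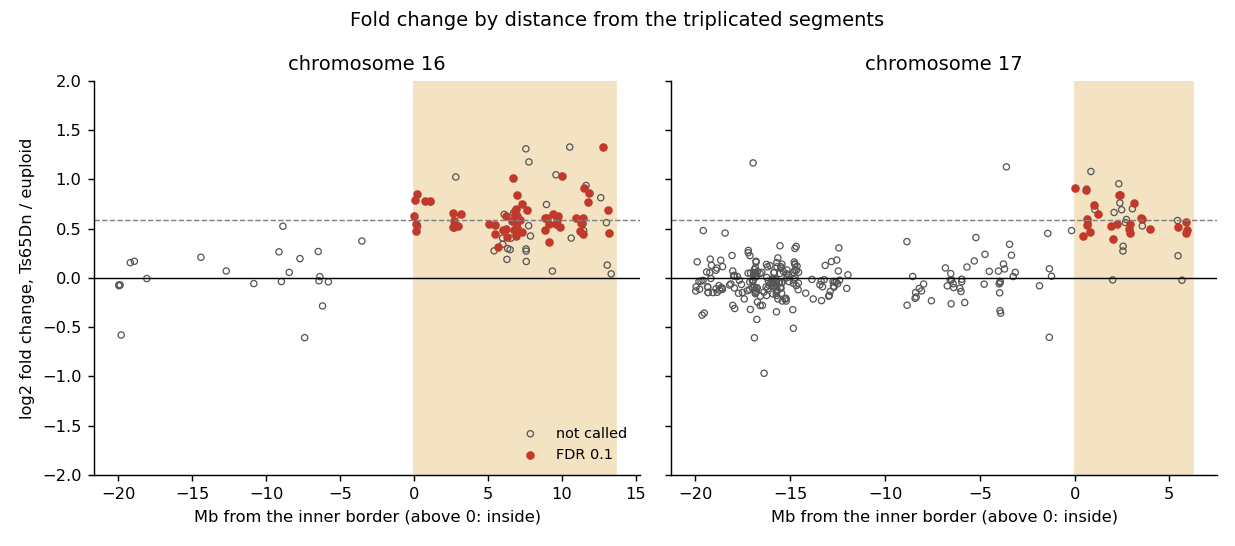
Log2 fold change of Ts65Dn over euploid for each tested gene against its distance from the border of the triplicated segment of chromosome 16 and of chromosome 17, in Mb, with the segment shaded, genes called at an adjusted p under 0.1 in red and a dashed line at a 1.5-fold level. Genes inside the segments lie around a median of 0.56 and those within 10 Mb outside around medians of 0.01 and -0.03, apart from 1700010I14Rik at the chromosome 17 border.

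The effect of Ts65Dn at E17.5 was compared with its mean effect in the adult hippocampus at 6 weeks, in a single fit over 15 embryonic and 31 adult libraries. Age and tissue cannot be told apart in this contrast. Of 18002 genes 10 differed (0.0555%), 6 with a more positive log2 fold change at E17.5 (0.0333%) and 4 with a more negative one (0.0222%), and 1512 differed at an unadjusted p under 0.05. The count was 0 with adult females only, 0 with adult males only, and 54 without 3 adult libraries that went against their labels in the dose of segment genes or in Ddx3y and Xist. No segment gene was called among 141 tested, and their median log2 fold change was 0.57 at E17.5, 0.53 in adult females and 0.50 in adult males. The adult medians include those 3 libraries, among them a male Ts65Dn library with a median log2 ratio of -0.04 for segment genes.

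Of the genes given here on the positive side, both connexins had the largest differences. As said above, both are expressed by meningeal cells as well as by astrocytes. Gja1 had log2 fold changes of 0.61 at E17.5, -0.06 in adult females and -0.15 in adult males, a difference of 0.71 (adjusted p = 0.00356). Gjb6 followed with a difference of 0.87 (adjusted p = 0.0282). Oplah had a difference of 0.38 (adjusted p = 0.0347). Add3, a membrane skeleton protein gene, had a difference of 0.36 (adjusted p = 0.0442). On the negative side, Npas1 had -0.41 at E17.5 against 0.02 and 0.12 in adult females and males (difference -0.48, adjusted p = 0.076). Neurog2, a proneural factor, had -0.47 at E17.5 against 1.35 and 1.55 in the adults (difference -1.93, adjusted p = 0.0362). The other genes on this side, the keratin gene Krt5 and the olfactomedin gene Olfm5, rested on EU3, where they reached 14.2 and 4.52 CPM, and without EU3 and EU7 their differences had an adjusted p of 0.935 and 0.723.

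**Figure D5:**
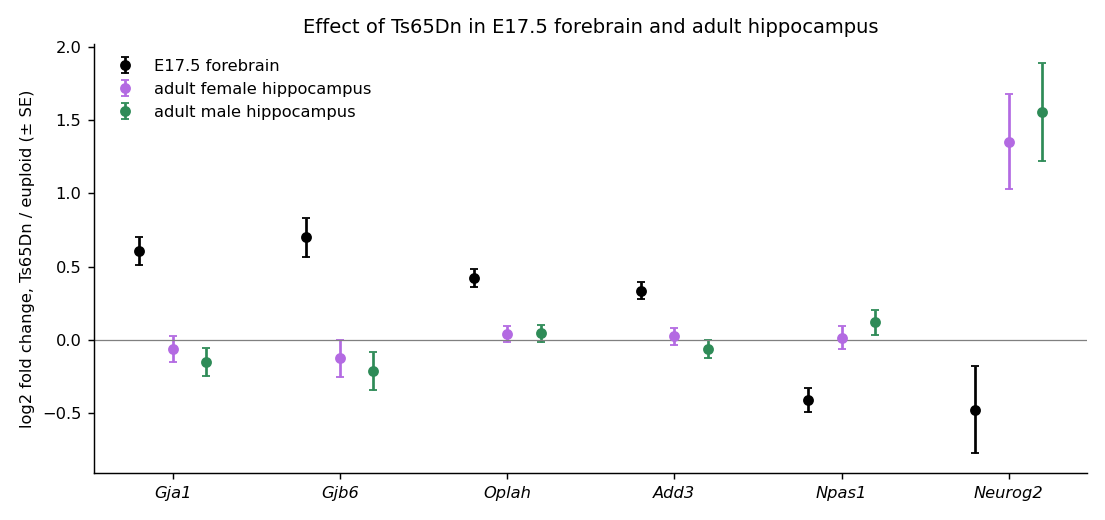
Log2 fold change of Ts65Dn over euploid in E17.5 forebrain and in adult female and male hippocampus for Gja1, Gjb6, Oplah, Add3, Npas1 and Neurog2, which were called in the contrast between ages; bars show 1 standard error. Gja1 lies at 0.61 at E17.5 and at -0.06 and -0.15 in the adults, and Neurog2 at -0.47 against 1.35 and 1.55.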

How the data were processed

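RNA-seq libraries of polyadenylated RNA were prepared from 15 E17.5 forebrain samples with the TruSeq V2 kit. The authors aligned reads with HISAT2 and counted them per gene with featureCounts 2.0.1. The HISAT2 version is 2.1.0 in the submitters' processing notes, which name mm10 and mm9. The deposited values are raw counts per Entrez gene, not normalised, and every result here was computed from them.

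Libraries were scaled by TMM, genes passed edgeR's filterByExpr with a minimum count of 10, and groups were compared with the robust quasi-likelihood test of edgeR 4.0.16 (R 4.3.3, limma 3.58.1) with Benjamini-Hochberg adjustment over all genes tested, at an adjusted p under 0.1, the level the study used. CPM values use the scaled library sizes. For the 1.5-fold test, the log of 1.5 was added to the offsets of segment genes in Ts65Dn libraries and p-values were adjusted over all genes tested. The contrast between ages was fitted on the joined counts of 46 libraries in 6 groups. Counts limit the precision of low genes, and no library pair agreed within sampling noise. Median ratios of segment genes used a pseudocount of 0.5 counts.

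Positions came from RefSeq GRCm38.p6, with GENCODE for 18 genes. No position was matched for 1886 genes, which held 0.794% of E17.5 counts and were counted as outside the segments. The segments were taken as chromosome 16 from Mrpl39 (84718281) to its end and chromosome 17 from its start to the end of Pde10a (8986648). Promoter windows came from RefSeq GRCm38.p6.

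The genes and lists were chosen with earlier results of these data known. Genes named are Brwd1, Dyrk1a and App; outside the segments, the 15 called genes with the smallest p in each direction; in each list, up to 6 called members with the smallest p, or up to 3 with the highest level where none was called; inside, up to 8 with the smallest p against 1.5-fold on each side; called genes within 10 Mb of a border; and up to 6 genes in each direction of the contrast between ages. Of these, those with a described role or result are given, and others are said to be chosen after their values were seen. The lists came from textbook knowledge of cell types and pathways.

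Alternatives were DESeq2 1.42.0, other scalings and filters, an adjusted p of 0.05, RUVr factors, each title number, Ddx3y as a covariate, a replicate block, protein-coding genes, and each library left out. Leaving out EU3 and EU7 and the 3 marker covariates were added after seeing the data. Scripts were tested on simulated data. Some genes that the rule names are not reported here, although they count in the totals.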

Additional observations from a re-analysis of the deposited data

Results flagged for a closer look

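In 112 sets of values, each a named gene's CPM or a list's summed CPM within a genotype, 9 had a library whose gap to its nearest neighbour was large for the range of the group by Dixon's test, where chance gives about 5% of sets, or 5.6. EU3 lay at 3120 CPM for the meningeal list (next 1480 CPM), at 415 CPM for muscle, bone and skin genes (next 68.3 CPM) and at 29.15 CPM for B2m (next 20.8 CPM). TS7 lay at 116 CPM for muscle, bone and skin genes (next 74.3 CPM). EU6 lay at 3070 CPM for astrocyte genes (next 2390 CPM) and at 74.9 CPM for Pdgfra (next 58.3 CPM). EU4 lay at 2780 CPM for upper-layer cortical neuron genes (next 2110 CPM) and at 2550 CPM for cell cycle genes (next 1920 CPM). TS1 was lowest for Stom, at 17.47 CPM (next 19.6 CPM).

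By the test of the difference itself, the effect of Ts65Dn differed between E17.5 forebrain and adult hippocampus in 10 of 18002 genes (0.0555%). With adults of either sex alone no gene was called. The 3 adult libraries described at the end of this paragraph were kept in the fit. On the log2 scale the difference was 0.71 for Gja1, 0.87 for Gjb6, 0.38 for Oplah, 0.36 for Add3, -1.93 for Neurog2, -0.48 for Npas1, -6.43 for Krt5 and -9.25 for Olfm5. The last pair rest on EU3. Among the 31 adult libraries, 3 went against their labels, in that a male Ts65Dn library lacked the added dose of segment genes, another had Xist at 486 CPM with Ddx3y at 0.222 CPM, and a female euploid library had Ddx3y at 49.2 CPM with Xist at 0.733 CPM.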

How the results depend on the processing

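All numbers of genes below are at an adjusted p under 0.1, given as all genes, higher, lower and outside the segments, against 221, 181, 40 and 138. Leaving out 1 library gave 122 to 456, 114 to 403, 4 to 53 and 48 to 364. Counts were lowest without TS2 (TS7 for genes that were higher) and highest without EU3 (EU3 and TS1 equally for genes that were lower). DESeq2 called 587, 435, 152 and 486. With 1, 2 and 3 RUVr factors, whose number the study's methods do not give, the counts were 1374, 760, 614 and 1269, then 2474, 1345, 1129 and 2366, then 3339, 1632, 1707 and 3228. At an adjusted p of 0.05 they were 115, 106, 9 and 41. The first title number alone (EU1 to EU4, TS1 to TS3) gave 21, 19, 2 and 3, and the second alone 125 in all, 125 higher, 0 lower and 70 outside. Upper-quartile scaling left 20 lower, so that 90.6% of calls were higher against 81.9% with TMM, and no filter left 18 lower and 93 outside.

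Chosen after seeing the data, the midbrain, hindbrain and spinal cord covariate gave 64, 64, 0 and 5, the choroid plexus covariate 123, 108, 15 and 47, and the meningeal covariate 149, 95, 54 and 78, so that 63.8% of its calls were higher. Of the 138 genes, 5, 39 and 32 were still called with the 3 covariates in turn. Called members summed over lists were 17 higher and 2 lower; they were 40 and 7 with DESeq2, 73 and 61 with 1 RUVr factor, 0 and 0, 6 and 1, and 3 and 6 with the 3 covariates in turn.

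The median of segment genes, 0.56, was 0.585 with upper-quartile scaling, 0.592 with no filter, 0.578 with 2 RUVr factors, 0.587 with the first title number alone, and 0.559 to 0.593 with 1 library left out. Segment genes that differed from 1.5-fold numbered 0 to 2 with 1 library left out. With the replicate number as a block the counts were 121, 111, 10 and 51, the median 0.589 and the genes apart from 1.5-fold 0; the numbers do not pair the samples, since deviations of same-numbered samples correlated from -0.197 to 0.3 and 1 of 7 correlated best with its own number. In the contrast between ages, 10 genes were called, 0 with adult females only, 0 with adult males only, 54 without the 3 adult libraries at odds with their labels and 37 with DESeq2. None of the 138 genes called outside the segments reversed its direction in a setting that tested it. The balance of calls did reverse with 3 RUVr factors, at 1632 higher and 1707 lower. The balance of called list members reversed with the meningeal covariate, as given above. The causes of these shifts were not tested.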
